A study of Caenorhabditis elegans with 6 samples.

Results

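The *far* genes of *Caenorhabditis elegans* encode fatty acid and retinol-binding (FAR) proteins, small helix-rich proteins that are found in nematodes and not in their plant or animal hosts. The members were defined by gene symbol in the annotation of the array, *far-1* to *far-8*. All 8 were found, each read by 1 probe set that names 1 gene, among 17118 genes read in this way. The family was put forward with its response to RPW-24 on these arrays already known, so the treatment difference of its members is given as a description, with each value and its spread. No p is given for a member, and counts of members past a threshold stand only beside the share of all probe sets.

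Wild-type N2 animals were raised on *E. coli* OP50 to the late L4 larval stage. They were then kept in liquid medium with the same bacteria for 15 hours at 15°C by the study's methods. Its results text gives a slightly longer time. One group received 70 µM RPW-24, a quinazoline-2,4-diamine whose 2-amino nitrogen carries a 3-chloro-4-methylphenyl group, known as a compound that protects worms from bacterial infection. The control group received its solvent alone, and both media held 1% DMSO. RNA of whole animals was hybridised to Affymetrix whole genome GeneChips in 3 biological replicates with the letters G, H and I, and each replicate gave 1 DMSO and 1 RPW-24 array, so 6 arrays in all. No pathogen was present. By the series' design text both treatments of a biological replicate were run in parallel, so arrays of 1 letter are taken as a pair. In whole animals a change in the amount of a tissue and a change in transcript per cell cannot be told apart.

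FAR proteins bind fatty acids and retinoids in a hydrophobic pocket and are thought to carry these poorly soluble lipids through body fluids. Parasitic nematodes release related proteins into their hosts. *C. elegans* is free-living and has no host, and the worms take up a large part of their fatty acids from the bacteria they eat. The family has members that lie next to each other in the genome. By gene order in assembly WBcel235, *far-1* and *far-2* are neighbours, *far-5*, *far-3* and *far-4* follow each other, and *far-6*, *far-7* and *far-8* each stand alone. The annotated ends of *far-5* and *far-3* overlap.

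The 8 genes fell into those read well above their lowest values, most of them brighter in RPW-24, and those with hardly any signal. *far-3* was 9.62-fold brighter in RPW-24 than in DMSO. *far-6* and *far-1* were 1.85-fold and 1.40-fold brighter, with no overlap between groups. *far-2* was 1.15-fold brighter with groups that almost touched, *far-8* had a lower mean with overlapping groups, and *far-4*, *far-5* and *far-7* lay at or near their lowest values on all arrays. Intensities are on the linear scale of the deposited table, and differences are on the log2 scale. Probes of different genes bind with different strength, so the level of 1 *far* gene is not set against that of another.

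**Figure D1:**
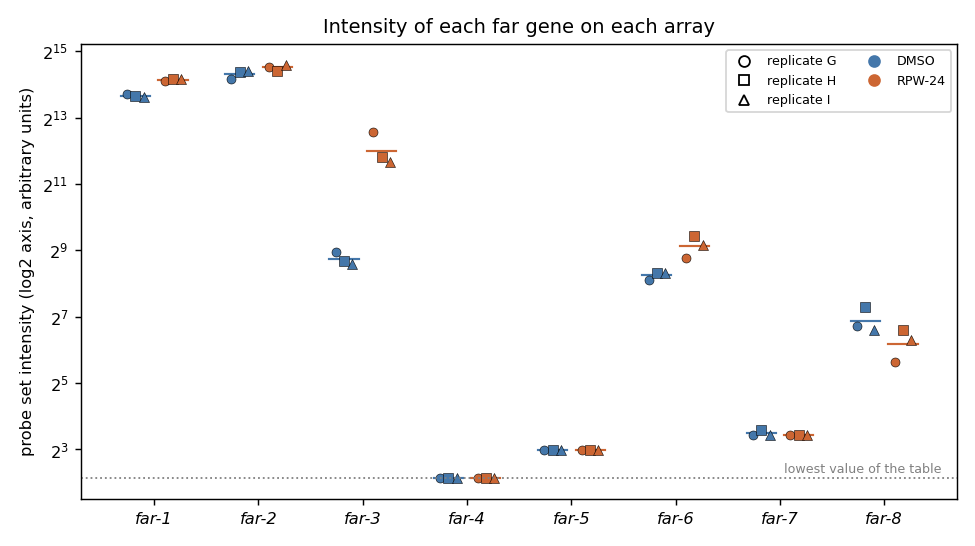
Intensity of each *far* gene (log2 axis, arbitrary units) on the 3 DMSO and the 3 RPW-24 arrays, with marker shapes for replicates G, H and I, horizontal lines for the mean of the log2 values, and a dotted line at the lowest intensity of the table, 4.39. The RPW-24 points of *far-1*, *far-2*, *far-3* and *far-6* lie above all of their DMSO points, and those of *far-4* and *far-5* do not move.

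*far-3* had intensities of 497, 412 and 383 with DMSO in replicates G, H and I. With RPW-24 it had 6019, 3585 and 3233. The groups were far apart, and replicate G was the highest array in both. The DMSO mean was 431 ± 59.4 (SD, n = 3), and the RPW-24 mean was 4279 ± 1517 (SD, n = 3). The log2 difference was 3.27 (standard error 0.28), which is 9.62-fold, and it was 3.60, 3.12 and 3.08 in the pairs G, H and I. Without 1 array in turn it lay between 2.99, without the RPW-24 array of G, and 3.44. The ID of its probe set ends in _s_at, which marks sets whose probes may match more than 1 transcript. Whether its probes also match another *far* transcript was not tested.

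The genes on either side of *far-3* in the cluster gave no such signal. *far-4* lay at the lowest intensity of the table, 4.39, on all 6 arrays. *far-5* stood at 7.90 on all 6 arrays, the same value to every digit in the table. This value is read here as the lower limit of that probe set, which was not tested. Such a repeated value above the table's lowest was held on all arrays by 965 of 22548 probe sets (4.28%). A change below such a limit cannot be seen, so the arrays do not show whether *far-4* and *far-5* responded.

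*far-1* had 13309, 12818 and 12642 in DMSO and 17619, 18304 and 18390.5 in RPW-24. All 3 RPW-24 arrays lay above all DMSO arrays, with narrow spread in both groups. The means were 12923 ± 346 (SD, n = 3) and 18105 ± 423 (SD, n = 3), with coefficients of variation of 2.67% and 2.33%. The log2 difference was 0.49 (standard error 0.03), or 1.40-fold, with 0.40, 0.51 and 0.54 in the pairs. Its probe set is also of the _s_at kind.

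*far-2*, the neighbour of *far-1*, had 18391, 21445 and 21526 in DMSO and 23659, 21812.5 and 24762 in RPW-24. The groups did not overlap, but the lowest RPW-24 array, replicate H, stood only just above the highest DMSO array, replicate I. The log2 difference was 0.20 (standard error 0.09), and the pairs gave 0.36, 0.02 and 0.20. The medians of the arrays ran from 8.94 to 9.04 in DMSO and from 9.83 to 9.98 in RPW-24. With each array centred on its median, a step that lowers RPW-24 against DMSO by 0.14 on the log2 scale for all probe sets alike, the difference of *far-2* was 0.06. *far-1* and *far-2* were among the brightest probe sets on every array, above 98.7% to 99.1% and above 99.1% to 99.4% of the others, a rank of brightness and not of transcript number.

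*far-6* had 277, 319 and 316 in DMSO and 437, 698 and 575 in RPW-24. No RPW-24 array reached down to a DMSO array, and the spread in RPW-24 was the wider of the 2 groups, with coefficients of variation of 22.9% against 7.75%. The means were 304 ± 23.6 (SD, n = 3) and 570 ± 131 (SD, n = 3). The log2 difference was 0.88 (standard error 0.19), or 1.85-fold, with 0.66, 1.13 and 0.86 in the pairs. The order of the letters differed from that of *far-3*, since replicate G was the lowest RPW-24 array of *far-6* and the highest of *far-3*.

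*far-8* had 106, 157 and 97.1 in DMSO and 49.2, 97.6 and 79.1 in RPW-24. The groups overlapped, because the RPW-24 array of replicate H stood above the DMSO array of replicate I. The means were 119.99 ± 32.1 (SD, n = 3) and 75.3 ± 24.4 (SD, n = 3), with a log2 difference of -0.70 (standard error 0.34). Within each pair the RPW-24 array was the lower, with differences of -1.11, -0.68 and -0.30 for G, H and I, and without 1 array in turn the difference lay between -0.91 and -0.42.

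*far-7* stood at 10.9 on 5 arrays and at 12.1 on the DMSO array of replicate H. The value that the 5 arrays share is read here as the lower limit of this probe set, which was not tested. The DMSO array of replicate H alone made its log2 difference of -0.05, and without that array the difference was 0.00. In all, 5 of the 8 genes had a mean log2 intensity of at least 5, and *far-4*, *far-5* and *far-7* did not.

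**Figure D2:**
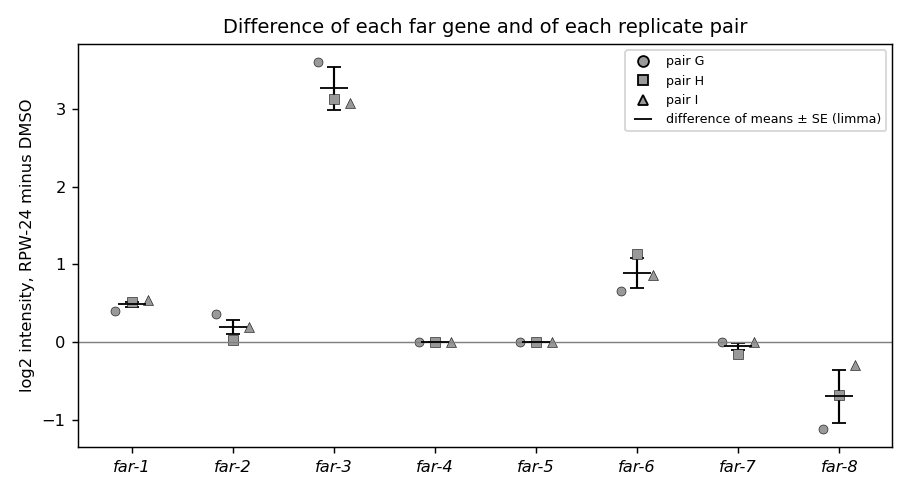
Log2 intensity in RPW-24 minus that in DMSO for each *far* gene, as the difference of means with its standard error from limma (black) and within each replicate pair (grey, G, H and I). *far-3* lies at 3.27, *far-6* at 0.88, *far-1* at 0.49 and *far-8* at -0.70, where the 3 pairs range from -1.11 to -0.30.

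Counts of members are read against the whole table, fitted with limma, a linear model that shares the estimate of variance across probe sets. A probe set passed where its Benjamini-Hochberg adjusted p over the whole table was below 0.05. On 4 of the 8 genes all RPW-24 arrays lay above all DMSO arrays, as was the case for 8.09% of the 22548 probe sets tested, and on none did they lie below, against 10.4%. Among the 9951 probe sets with a mean log2 intensity of at least 5, these shares were 15.3% and 22.1%. By this limma criterion *far-1* and *far-3* were counted as higher, beside 2.42% of probe sets, and no *far* gene as lower, beside 1.07%. At an unadjusted p below 0.05, limma counted 3 as higher, beside 6.79% of probe sets, and 0 as lower, beside 8.25%. A plain stand-in for the methods' t-test, which is stated only as modified, was run unpaired and with equal variances on linear intensities, and it counted 3 as higher, beside 5.74%, and 0 as lower, beside 6.73%. With the thresholds of the study (an unadjusted p below 0.025 and a change of 3-fold or more), *far-3* alone was counted as higher, beside 1.47% of probe sets, and none as lower, beside 0.381%. Because the family was put forward with this contrast known, nothing is read from these counts. With the replicate letter as a block, 1 *far* gene, *far-3*, was counted as higher in place of 2, beside 166 of all 22548 probe sets. With the block, and dim probe sets left out (mean log2 intensity below 5, a setting chosen after seeing the data), 3 were, *far-1*, *far-3* and *far-6*. In that setting 937 of the 9951 probe sets were higher. Without the DMSO array of H, and without that of I, *far-1* alone was counted, beside 274 and 280 probe sets. Without probe sets of the _s_at and _x_at kind, the _s_at kind being the one that reads *far-1* and *far-3*, 0 were counted, beside 300 probe sets. The median log2 difference was 0.10 over the 8 genes, 0.00 over all 17118 genes and -0.07 over the 7365 genes with a mean log2 intensity of at least 5.

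The genes next to the 5 *far* loci were compared to ask whether whole stretches of the genome moved with them. Of 10 neighbours, the nearest protein-coding gene on each side of each locus, 8 were read by a probe set that names 1 gene. By limma 0 of the 8 passed. At an unadjusted p below 0.05 limma gave 2 higher and 0 lower, beside 6.79% and 8.25% of all probe sets. The stand-in for the methods' t-test gave 1 and 0, beside 5.74% and 6.73%. The 2 higher by limma, *fat-2* and *K02F3.9*, had groups that did not overlap. *K01A2.10* beside *far-7*, *K02F3.2* beside *far-8*, *F02A9.1* and *pqn-74* had mean log2 intensities of 4.04, 2.19, 2.14 and 3.20. A change in such dim probe sets could hardly be seen, so for them the counts do not answer the question. Beside the *far-3* cluster lies *inft-2*, a formin gene, with a log2 difference of -0.13 (standard error 0.10) against the 3.27 of *far-3*. Beside *far-1* and *far-2* lie *F02A9.1*, at the lowest intensity on 5 arrays, and *mrpl-44*, a gene for a mitochondrial ribosomal protein, with -0.16 (standard error 0.07).

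*far-6* has *fat-2* as its neighbour, the gene of a desaturase that makes linoleic acid. *fat-2* had 4063, 4236 and 3848 in DMSO and 5450.3, 5378 and 4868 in RPW-24, so the groups did not overlap. Its log2 difference was 0.37 (standard error 0.06), which missed the threshold (adjusted p = 0.0596 from limma). *fat-2* passed when probe sets with a mean log2 intensity below 5 were left out (adjusted p = 0.0167 from limma). With that filter and the replicate block it also passed (adjusted p = 0.0208 from limma), as it did with arrays centred on their medians (adjusted p = 0.0205 from limma). Over all settings tried its adjusted p ranged from 0.0167 to 0.178. *pqn-74*, on the other side of *far-6*, held the same dim value on all arrays. Beside *far-8*, *K02F3.9* had a DMSO mean of 764 ± 122 (SD, n = 3), an RPW-24 mean of 1217 ± 300.4 (SD, n = 3) and a log2 difference of 0.66 (adjusted p = 0.264 from limma).

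**Figure D3:**
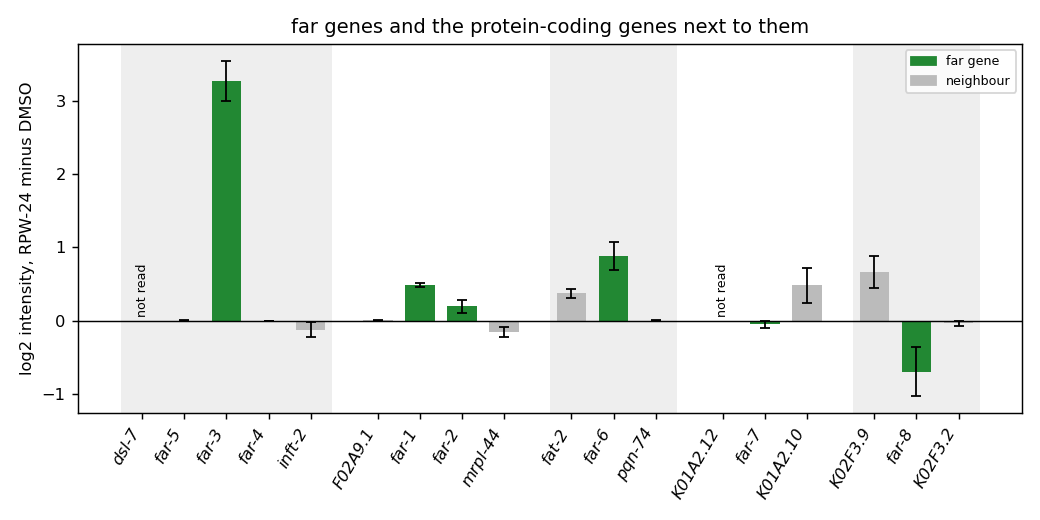
Log2 intensity in RPW-24 minus that in DMSO, with its standard error from limma, for the *far* genes (green) and the protein-coding gene on each side of each locus (grey), in gene order within a shaded or white block for each locus. The bar of *far-3* stands at 3.27 between *far-5* and *far-4*, which are at 0, and "not read" marks a neighbour with no probe set that names it alone.

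The genes whose profile over the 6 arrays was nearest to that of *far-3* were found by the root mean square difference of their log2 values, each gene set to 0 at its own DMSO mean, among 9463 other probe sets with a mean log2 intensity of at least 5. They were *F35E12.10*, *srlf-34*, *apy-1*, *F10C2.3* and *F19B2.5*, with root mean square differences of 0.18, 0.20, 0.21, 0.23 and 0.23. *apy-1* encodes an apyrase, an enzyme that hydrolyses nucleoside diphosphates. It had 810, 711 and 550.4 in DMSO and 6896, 5632 and 4962 in RPW-24. *F35E12.10* had 1520.3, 1124 and 1176 in DMSO and 13528, 9661 and 10046 in RPW-24. The log2 differences of the 5 genes lay between 3.08 and 3.48, and in each of the 5 the highest RPW-24 array was that of replicate G, as in *far-3*. They were picked for this likeness, so it is a description over 6 arrays. When likeness was taken as Pearson's correlation, none of the 5 nearest genes was the same.

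**Figure D4:**
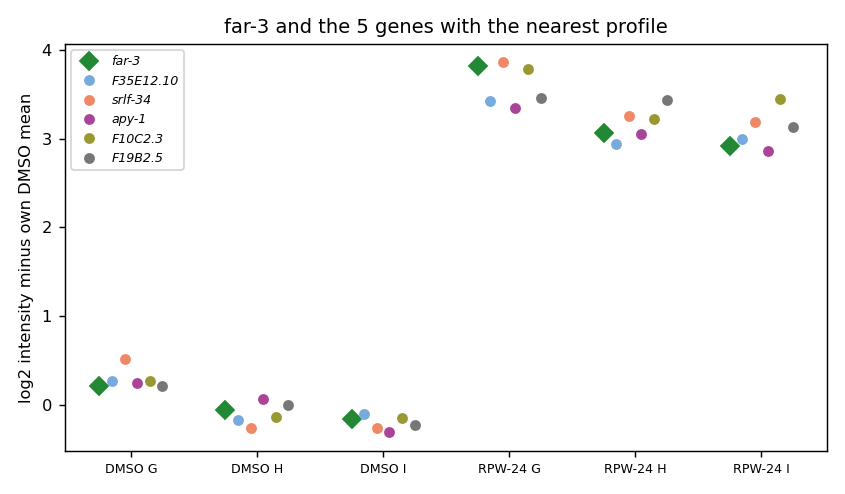
Log2 intensity minus the gene's own DMSO mean on each of the 6 arrays for *far-3* (diamonds) and the 5 genes with the nearest profile (circles). All 6 genes lie near 0 on the DMSO arrays and high on the RPW-24 arrays, with log2 differences between 3.08 and 3.48.

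Other genes that bind, carry or make fatty acids were read in 6 lists. Of 48 genes listed, 46 were measured, and 41 did not pass by limma. Of the rest, 4 rose, beside 2.42% of all probe sets, and 1 fell, beside 1.07%. With the replicate letter as a block, 0 rose and 0 fell, with an adjusted p from limma of 0.0663 for *dsc-4*, 0.0782 for *fat-3*, 0.109 for *lbp-3*, 0.13 for *lbp-7* and 0.121 for *vit-1*. Over all settings tried, the adjusted p of *dsc-4* ranged from 1.1e-05 to 0.0663, that of *fat-3* from 0.000115 to 0.0782, that of *lbp-3* from 0.000135 to 0.146, that of *lbp-7* from 0.000558 to 0.148 and that of *vit-1* from 7.22e-05 to 0.121. When 1 array was left out in turn, 1 to 3 of the lists' genes rose, with 1 without the DMSO array of G and 2 without the DMSO array of H, the DMSO array of I or the RPW-24 array of H. *dsc-4* passed in each of these 6 fits, while *fat-3* missed the threshold in 3, *lbp-3* in 4, and *lbp-7* and *vit-1* in 5.

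Intracellular lipid-binding proteins are the other family of small fatty acid carriers, and act inside cells or are secreted, with a barrel in place of helices. Of 9 *lbp* genes, 2 rose, 0 fell and 7 did not pass by limma. At an unadjusted p below 0.05 limma gave 3 higher and 0 lower, the stand-in for the methods' t-test 3 and 1. For all probe sets these unadjusted shares were 6.79% and 8.25% by limma, and 5.74% and 6.73% by the stand-in. They hold for the lists below as well. All such shares include dim probe sets, and the lists were not tested against them. *lbp-3* was at 493 ± 10.3 (SD, n = 3) with DMSO and 1626 ± 364 (SD, n = 3) with RPW-24, a log2 difference of 1.70 (standard error 0.18, limma adjusted p = 0.0167). *lbp-7* was at 148 ± 11.1 and 345 ± 63.1 (SD, n = 3 each), a log2 difference of 1.21 (standard error 0.15, limma adjusted p = 0.0275). The median over the list was 0.23.

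Yolk proteins carry lipid from the intestine to the oocyte. Of 8 genes of yolk and lipoprotein transport, 1 rose and 1 fell by limma. At an unadjusted p below 0.05 limma gave 1 higher and 3 lower, the stand-in for the methods' t-test 1 and 2. *dsc-4*, which encodes the large subunit of the microsomal triglyceride transfer protein, a factor that loads lipid onto lipoproteins and is read by an _s_at probe set, was at 298 ± 78.2 and 2323 ± 100.1 (SD, n = 3 each), a log2 difference of 3.00 (standard error 0.21, limma adjusted p = 0.00543). *vit-1*, a yolk protein gene, was at 24319 ± 1176 and 13958 ± 1646 (SD, n = 3 each), a log2 difference of -0.81 (standard error 0.10, limma adjusted p = 0.0253). The *vit* genes are close copies of each other, so the signal of 1 may come in part from another. The median over the list was -0.03.

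Of 15 desaturase and elongase genes, which build long and unsaturated fatty acids, 1 rose and 0 fell by limma, which at an unadjusted p below 0.05 gave 4 higher and 1 lower, the stand-in for the methods' t-test 3 and 0. *fat-3*, the desaturase that opens the path to long polyunsaturated fatty acids, was at 1430 ± 177 (SD, n = 3) and 3210 ± 154 (SD, n = 3), a log2 difference of 1.17 (standard error 0.10, limma adjusted p = 0.0109). *fat-7*, a stearoyl-CoA desaturase, had a log2 difference of 1.69 (standard error 0.29, limma adjusted p = 0.0614) and did not pass. At the study's thresholds it was counted as higher (3.235-fold, unadjusted p = 0.002502 from limma), beside 1.47% of all probe sets. By limma 0 genes passed in the lists of 6 acyl-CoA-binding proteins, 2 sterol transporters or 6 regulators of fatty acid genes, whose medians were -0.03, 0.20 and -0.04. At an unadjusted p below 0.05 limma gave 2 higher and 1 lower, 0 and 0, and 0 and 0 in these lists, and the stand-in for the methods' t-test gave 2 and 0, 0 and 0, and 0 and 0.

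**Figure D5:**
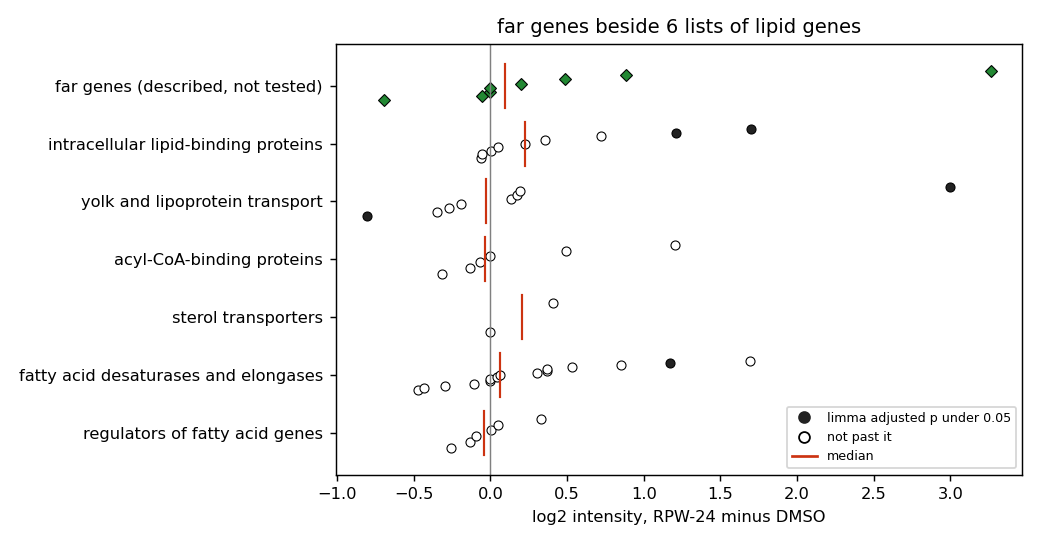
Log2 intensity in RPW-24 minus that in DMSO for the *far* genes (diamonds, described with no p) and the genes of 6 lipid lists (circles, filled where the limma adjusted p is below 0.05), with the median of each as a red line. *far-3* at 3.27 and *dsc-4* at 3.00 lie farthest to the right, and *vit-1* at -0.81 farthest to the left.

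Marker lists were read for the tissue content of the RNA. Whether single markers, such as *mtl-2* and *pgp-1*, responded to RPW-24 itself was not tested. All RPW-24 arrays lay above all DMSO arrays in 8 of 9 intestinal markers and below in 1, *asp-1* (log2 difference -0.12). Over all probe sets these shares were 8.09% and 10.4%, and among those with a mean log2 intensity of at least 5 they were 15.3% and 22.1%. *gem-4* alone passed (limma adjusted p = 0.0186), beside 2.42% of all probe sets. The median log2 difference was 0.81, which was that of *mtl-2*, and the highest was 1.99 in *pgp-1*, with a DMSO mean of only 4.81. The summed intensity of the 9 ran from 61662 to 75125 in DMSO and from 73532 to 81752 in RPW-24. Such sums follow their brightest probe sets, here *asp-1* with means of 43001 and 39433, and do not measure amounts of tissue. Of 10 germline markers, 0 passed by limma, and 6 had all RPW-24 arrays below all DMSO arrays, with a median log2 difference of -0.23. Limma gave 5 as lower at an unadjusted p below 0.05, beside 8.25% of all probe sets. The stand-in for the methods' t-test also gave 5, beside 6.73%. The sum of the 10 ran from 77106 to 79026 in DMSO and from 62799 to 69813 in RPW-24. The sum of 9 hypodermal markers ran from 30253 to 31710 in DMSO and from 29812 to 30178 in RPW-24. Of it, *sqt-3* alone had means of 28158 and 27601, and 4 of the 9 had a mean log2 intensity of at least 5. The sum of 8 muscle markers ran from 9706 to 13795 and from 13747 to 18583. That of 10 neuronal markers ran from 5436 to 5963 and from 5936 to 6574, with *snb-1* at means of 4673 and 4670. Of the 10, 2 passed, the neuropeptide-processing genes *egl-3* and *egl-21* (limma adjusted p = 0.0436 and 0.0363). The sum of 5 markers of the adult stage ran from 96374 to 101734 and from 101031 to 118639. In it *vit-2* had means of 38461 and 44152, and *vit-6* 46436 and 50963. The muscle regulator *hlh-1* and the adult-stage regulator *lin-29* were at the table's lowest intensity throughout. The part of these shifts in the differences of *far-3*, *far-6*, *far-1* and *far-8* was not tested.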

How the data were processed

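The deposited values are linear intensities, 1 for each probe set on each array, which the authors computed with GC-RMA (also named in the labels), followed by quantile normalization, in GenePattern version 2.0. Their methods name a modified t-test, with no further detail in these sources, and limma, and as a stand-in for the methods' t-test a plain unpaired one with equal variances on linear intensities, were used here in its place. A version of GC-RMA itself was not found in these sources. The scale shares a lowest value of 4.39, and between 35.7% and 37.2% of probe sets on an array lie at it. Of 22625 probe sets, 77 controls were left out. Values were put on the log2 scale and fitted with limma 3.58.1 in R 4.3.3 (lmFit, then eBayes with a variance trend) over all 22548 others, with no filter and no block. Probe sets naming several genes (887) or none (895) entered the fit but were not named. A gene with several probe sets was given by the brightest.

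The members, lists and tests were chosen with earlier results of these data known. Named genes are all *far* genes, their neighbours, up to 4 genes that passed in each direction of each lipid list, those of largest change first, and the 5 genes nearest to *far-3*. Others named were chosen after their values were seen. Assembly WBcel235 gave names and gene order, and its annotated ends gave that order and the overlap of *far-5* and *far-3*, and no coordinates are printed.

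Arrays of the same replicate letter were paired because the series' design text says that both treatments of a replicate were exposed in parallel. Each array's deviations from its group mean, over 13946 probe sets brighter than the lowest value on all arrays, correlated at 0.0881, 0.144 and 0.138 for arrays of the same letter, and between -0.0944 and -0.0322 for others. Deviations from a group mean cancel out within the group, so the negative values follow largely from the positive ones. With 3 arrays against 3, an exact permutation test that ignores the pairing cannot go below p = 0.1. Precision is limited by the number of arrays, which carry no read depth. The fit was tested on simulated data. Summaries used Python 3.11.15 with pandas 2.3.3. Protein and promoter sequences were not analysed here. Figures were drawn with matplotlib 3.10.9.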

Additional observations from a re-analysis of the deposited data

How the results depend on the processing

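The differences of *far-2*, *far-3*, *far-6* and *far-8* moved by less than 1 SD of the pair differences in all settings that could be fitted. Arrays centred on their medians gave 0.35 for *far-1*, -0.14 for *far-4* and *far-5* and -0.19 for *far-7*, since the step shifts all probe sets by -0.14, and a further quantile normalization gave -0.11 for *far-5* and -0.21 for *far-7*. Without 1 array in turn the range was 0.47 to 0.51 for *far-1*, 0.12 to 0.25 for *far-2*, 2.99 to 3.44 for *far-3*, 0.72 to 1.06 for *far-6*, -0.91 to -0.42 for *far-8*, -0.08 to 0.00 for *far-7* and 0.00 for *far-4* and *far-5*. At an adjusted p under 0.05, 2 of 8 *far* genes were counted higher, beside 545 of all 22548 probe sets. The number was 1 with the replicate block (*far-3*, beside 166) and 1 by the stand-in for the methods' t-test (*far-1*, beside 177). It was 1 to 2 without 1 array, beside 274 to 390. Without _s_at and _x_at probe sets, which removes the probe sets of both genes, it was 0, beside 300. It was 3 (*far-1*, *far-3* and *far-6*) with centred arrays, beside 1112. It was also 3 when probe sets with a mean log2 value below 5 were left out. In that case 950 of 9951 probe sets were higher without the block and 937 with it. The counts over all probe sets also changed between settings, as given in the next paragraph. The number counted lower, 0, was 4 with centred arrays (*far-4*, *far-5*, *far-7* and *far-8*), beside 14480 of all 22548 probe sets. It was 1 after further quantile normalization (*far-5*), beside 814 probe sets. Of these *far* genes, *far-4*, *far-5* and *far-7* lay at or near their lowest values. *far-8* did not, with a mean log2 intensity of 6.53 and a difference of -0.83 with centred arrays. At the study's thresholds the 1 counted higher was also 0 without _s_at and _x_at probe sets.

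For the lipid lists, 4 higher and 1 lower became 9 and 16 with centred arrays, 9 and 2 without the dim probe sets, 0 and 0 with the replicate block, 10 and 3 with both the block and that filter (chosen after seeing the data), and 1 to 3 and 0 to 1 without 1 array. Over all probe sets, 545 higher and 242 lower became 1112 and 14480 with centred arrays, 950 and 673 with the filter, 166 and 27 with the block, 937 and 427 with both, 347 and 103 by a t-test on log2 values, 177 and 57 by the stand-in for the methods' t-test, 300 and 99 without _s_at and _x_at probe sets, and 274 to 390 and 72 to 156 without 1 array. The lower count was 814 after further quantile normalization. At the study's thresholds 86 lower became 47 without _s_at and _x_at probe sets. Beyond the centring shift and the removal of probe sets, the cause was not tested. Each *far* gene has 1 probe set, so the mean over probe sets of a gene gives the same values. Dim signal limits *far-4*, *far-5* and *far-7*, in which no change could be seen.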
